A study of Mus musculus with 13 samples.

Results

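The replication-dependent core histone genes were taken from ribosome footprint libraries of mouse fibroblasts as all symbols that begin with Hist1h, Hist2h, Hist3h or Hist4h followed by 2a, 2b, 3 or 4. The tables listed 61 such symbols among 22406, namely 18 of H2A, 18 of H2B, 12 of H3 and 13 of H4. A mean of at least 2 transcripts-per-million units (TPM, scaled for length) was required, and 58 members passed in the mouse embryonic fibroblast (MEF) table, among 10432 genes in all, with 17 of H2A, 16 of H2B, 12 of H3 and 13 of H4. In NIH3T3 cells 57 passed among 10117 genes, the difference being Hist1h2bc, which was listed at 0 in the 3 libraries. The members left out of both tables were Hist1h2ah, Hist1h2bk and Hist2h2be. Just below the limit stood Hist2h2be (mean 1.71 TPM in MEFs and 1.15 TPM in NIH3T3 cells), and the lowest members kept were Hist1h2aa in MEFs (4.61 TPM) and Hist3h2ba in NIH3T3 cells (16.8 TPM).

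The study asked how the kinase PERK, which phosphorylates the translation initiation factor eIF2α when the endoplasmic reticulum (ER) is stressed, shapes the early and the late response to that stress. PERK WT MEFs and PERK −/− MEFs were left untreated (control) or received 1 µM thapsigargin (Tg) for 1, 2, 5 or 8 h. Tg blocks the calcium pump of the ER and thereby causes ER stress. NIH3T3 cells, an established mouse fibroblast line, were left untreated or received 0.2 µM Tg for 2 or 7 h, and since dose and line both differ from the MEF series their values are given side by side. Cycloheximide was used neither before harvest nor in the buffers. The number of clones behind each MEF genotype is not given in the sources used here, so genotype and line cannot be told apart. Each condition was 1 library, which left no spread between replicates, and no test was made between conditions. Intervals given with a change are exact 95% intervals of 2 counts given their library totals, and they cover counting error only, not the way the software divided reads between copies.

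Core histones are the proteins around which DNA is wound: pairs of H2A, H2B, H3 and H4 make up the nucleosome. The genes of the replication-dependent set are read mainly in S phase, when new DNA has to be packed, and they lie in clusters of many near-identical copies. Their mRNAs end in a conserved stem-loop in place of a poly(A) tail, which is bound by the stem-loop binding protein SLBP and links their stability and translation to DNA replication.

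The copies are so alike that single members can often not be told apart by a footprint, which is why the sequences come before the values. All 13 H4 symbols encoded 1 protein of 103 residues, while the 12 H3 symbols encoded 2 proteins, the 18 H2A symbols 9 and the 18 H2B symbols 11. Coding sequences were taken from GENCODE M21 on GRCm38, clipped by 30 bases at each end as the authors did, and read in windows of 28 bases, about the length of a footprint. For 20 of the 61 members no window was unique among the coding genes, and only 9 had at least 50% unique windows. Below are bases 31 to 90 of the H4 coding sequence, counted from the A of the start codon, with every base that differs from Hist1h4m in capitals. Hist1h4n is identical to Hist1h4m here, while Hist1h4d and Hist4h4 each differ from it at 8 bases and Hist2h4 at 9. Distance from Hist1h4m in this stretch does not show which members can be measured on their own, since unique windows depend on all copies.
Hist1h4m: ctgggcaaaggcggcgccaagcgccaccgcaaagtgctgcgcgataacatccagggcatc
Hist1h4n: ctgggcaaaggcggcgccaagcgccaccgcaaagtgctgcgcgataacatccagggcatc
Hist1h4h: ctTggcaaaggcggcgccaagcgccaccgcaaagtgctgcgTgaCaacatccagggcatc
Hist1h4d: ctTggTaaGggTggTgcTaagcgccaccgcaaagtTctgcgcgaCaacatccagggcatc
Hist2h4: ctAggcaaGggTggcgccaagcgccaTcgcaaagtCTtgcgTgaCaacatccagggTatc
Hist4h4: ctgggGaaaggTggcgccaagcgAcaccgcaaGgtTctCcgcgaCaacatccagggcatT
Over the whole 252 clipped bases the differences from Hist1h4m numbered 0 in Hist1h4n, 5 in Hist1h4h, 12 in Hist1h4d, 23 in Hist2h4 and 31 in Hist4h4. Unique windows made up 79.1% of Hist2h4 and 97.8% of Hist4h4 but 25.8% of Hist1h4d and 13.8% of Hist1h4h. There were 5 groups of identical clipped sequences with 12 genes in all (Hist1h2ag, Hist1h2ao and Hist1h2ap; Hist1h2bq and Hist1h2br; Hist1h4m and Hist1h4n; Hist2h2aa1 and Hist2h2aa2; Hist2h3b, Hist2h3c1 and Hist2h3c2), and the deposited values within each group were identical in all 13 libraries. Such genes are counted as separate members below. For the 2-fold calls over all core members, counts with each group taken once are given beside them. The 18 H2A members also shared windows with the replacement variants H2afj and H2afx.

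The stem-loop that sets these mRNAs apart was searched on the coding strand as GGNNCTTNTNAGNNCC, a stem of 6 bases on each side of a loop of 4. It was found after the stop codon of 42 of the 61 members (11 of H2A, 10 of H2B, 9 of H3 and 12 of H4), with its first base 22 to 59 bases (median 32.5) after the stop. Of the 19 members without it, 15 have a gene model with under 60 bases after the stop. The others, Hist1h2bc, Hist1h2bq, Hist1h2br and Hist2h2be, are all of H2B and have models with 742 to 2192 bases after the stop but no match. Among 20845 other coding genes 43 (0.206%) held the motif, of which 4 were Hist1h1 linker histone genes. Copies from each class are shown with the loop in capitals, because it is the stem that differs between H4 and the other classes shown.
Hist3h2a: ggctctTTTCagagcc
Hist1h2bb: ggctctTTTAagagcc
Hist1h3c: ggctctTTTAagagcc
Hist1h4d: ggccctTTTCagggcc
Hist4h4: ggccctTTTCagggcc
Upstream, the 250 bases before the start site were read for 55 members with an entry in the RefSeq promoter table (GRCm38.p6), on both strands. The octamer ATTTGCAT, the known element of H2B promoters, was found in 13 (7 of 17 H2A, 6 of 16 H2B, 0 of 10 H3 and 0 of 12 H4) against 1.60% of 32851 promoters. CCAAT was in 44 (all 17 H2A and all 16 H2B, 8 of 10 H3 and 3 of 12 H4) against 33.8% of promoters, and TATAAA was in 25 against 12.4%. Divergent H2A and H2B genes can share an upstream region, and such windows are not independent. Stretches of 110 bases that end just before the RefSeq start site are shown for the H2B member with the most counts and for Hist4h4, with matches in capitals. They set a stretch that holds the octamer and CCAAT beside one without any of the motifs.
Hist2h2bb, chr3:96269590-96269699, plus strand: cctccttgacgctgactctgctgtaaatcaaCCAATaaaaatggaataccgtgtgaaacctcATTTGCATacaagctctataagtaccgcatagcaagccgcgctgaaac
Hist4h4, chr6:136804432-136804541, minus strand: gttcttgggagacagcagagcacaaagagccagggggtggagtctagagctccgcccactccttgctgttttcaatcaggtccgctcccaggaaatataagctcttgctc

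The libraries held 2525029 (WT at 2 h) to 14799515 (PERK −/− at 2 h) expected counts in MEFs and 2569965 to 11121006 in NIH3T3 cells. The median per member was 1538 to 6378 counts, and a listing at 0 allowed up to 0.203 to 1.19 CPM (counts-per-million units, 3 counts per library). Footprints on Eif2ak3, which encodes PERK, were present in both genotypes, at 14.4 to 33.3 CPM in WT and 7.64 to 19.1 CPM in PERK −/− MEFs, and the tables do not say which part of the gene they cover. All 8 fibroblast markers passed the limit in MEFs and 7 of 8 in NIH3T3 cells (all but Col3a1), with summed levels of 4820 to 7424 and 5271 to 8970 TPM. Their median log2 change under Tg was below 0 in all 10 Tg libraries, from -1.36 (PERK −/− at 2 h) to -0.20 (WT at 5 and 8 h), and its part in the results was not tested. None of the 4 macrophage markers (Ptprc, Cd68, Adgre1 and Csf1r) passed, and 1 of 4 epithelial and 1 of 4 endothelial markers did in each table. Summed levels were at most 4.80 TPM for the macrophage, 17.7 TPM for the epithelial and 5.14 TPM for the endothelial list.

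The summed core histone footprints were higher in WT MEFs at every time of Tg, while in PERK −/− MEFs they stayed near their control. In WT MEFs the members together held 14636, 33776, 37859, 33209 and 34655 CPM, in the order control, 1, 2, 5 and 8 h that is kept for all MEF values. The 4 Tg libraries therefore all lay above the control, by 2.31-, 2.59-, 2.27- and 2.37-fold. On the log2 scale the changes were 1.21 (interval 1.20 to 1.22), 1.37 (1.36 to 1.38), 1.18 (1.17 to 1.19) and 1.24 (1.24 to 1.25). After the step to 1 h, the neighbours in time differed little in size, with log2 differences of 0.16 from 1 to 2 h, -0.19 from 2 to 5 h and 0.06 from 5 to 8 h.

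In PERK −/− MEFs the same sum was 16672, 15116, 15136, 20971 and 16278 CPM. The log2 changes were -0.14 (-0.15 to -0.13), -0.14 (-0.15 to -0.13), 0.33 (0.32 to 0.34) and -0.03 (-0.05 to -0.02). The 5 h library thus stood apart upwards, by 0.47 on the log2 scale from 2 h, and the 8 h library was 0.37 below it. The highest PERK −/− value, 20971 CPM, was below the lowest value of Tg-treated WT MEFs, 33209 CPM.

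In NIH3T3 cells the sum was 27619, 62148 and 31855 CPM, in the order control, 2 and 7 h, a log2 change of 1.17 (1.16 to 1.18) at 2 h and 0.21 (0.20 to 0.21) at 7 h. The value at 7 h was 0.96 below that at 2 h on the log2 scale, where the WT MEF libraries of 5 and 8 h were 2.27- and 2.37-fold above their control. All values are shares of a library, so they are gains or losses relative to the other footprints and not amounts per cell. Since the libraries are of whole cultures, more cells in S phase and more footprints per cell cannot be told apart, and neither can mRNA level and translation.

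**Figure D1:**
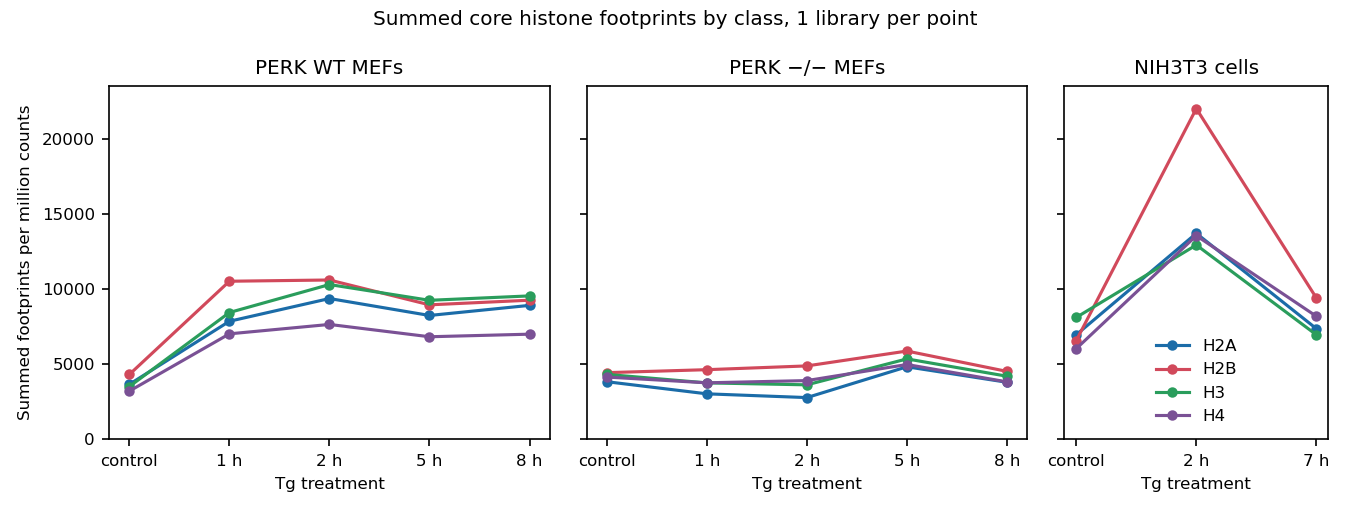
Summed footprint level (CPM, linear y axis, from 0) of the H2A, H2B, H3 and H4 members in each library, with control and hours of Tg on the x axis (evenly spaced, not to time scale). Every point is 1 library and has no replicate error. In WT MEFs all 4 classes lie above their control at all times, in PERK −/− MEFs they lie near it, and in NIH3T3 cells the classes are highest at 2 h, H2B above the others.

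Single members were compared by the study's own rule, in which TPM values under 4 are raised to 4 and a gene counts as changed from 2-fold. In WT MEFs 36 of 58 members were at least 2-fold higher at 1 h, where 4.33% of all expressed genes were. At 2 h it was 45 members against a background of 5.66%, at 5 h 41 members against 5.86%, and at 8 h 45 members against 6.45%. With identical copies taken once the numbers were 33, 40, 37 and 40 of 51. Only Hist1h3h was at least 2-fold lower at each of the 4 times (backgrounds 2.29%, 4.01%, 3.55% and 3.87%). Median log2 TPM changes of the members were 1.11, 1.30, 1.21 and 1.32, beside 0.00, 0.00, 0.00 and 0.01 over all expressed genes.

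In PERK −/− MEFs 2, 2, 4 and 2 of 58 members were at least 2-fold higher at 1, 2, 5 and 8 h, where the backgrounds were 0.719%, 0.623%, 3.26% and 3.28%. At least 2-fold lower were 6, 7, 4 and 1 members, with backgrounds of 3.38%, 5.78%, 4.77% and 2.73%. With identical copies taken once, 2, 2, 4 and 2 of 51 members were higher and 4, 5, 4 and 1 lower at the same times. Member medians were -0.13, -0.15, 0.34 and 0.00 on the log2 scale. In NIH3T3 cells 23 of 57 members were at least 2-fold higher at 2 h (background 5.76%) and 3 were lower (3.76%). At 7 h 11 were higher (7.01%) and 4 lower (8.06%). With identical copies taken once, 22 of 50 were higher and 1 lower at 2 h, and 11 higher and 2 lower at 7 h. Medians there were 0.87 at 2 h, beside -0.13 over all expressed genes, and -0.02 at 7 h. Of the 58 members, 20 had their highest WT value at 1 h, 21 at 2 h, 4 at 5 h, 12 at 8 h and 1 in the control. In PERK −/− MEFs 39 of 58 were highest at 5 h, and in NIH3T3 cells 47 of 57 at 2 h. Identical copies count separately here. No share over all expressed genes is given for the time of the highest value, so these counts are not read as particular to the members.

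**Figure D2:**
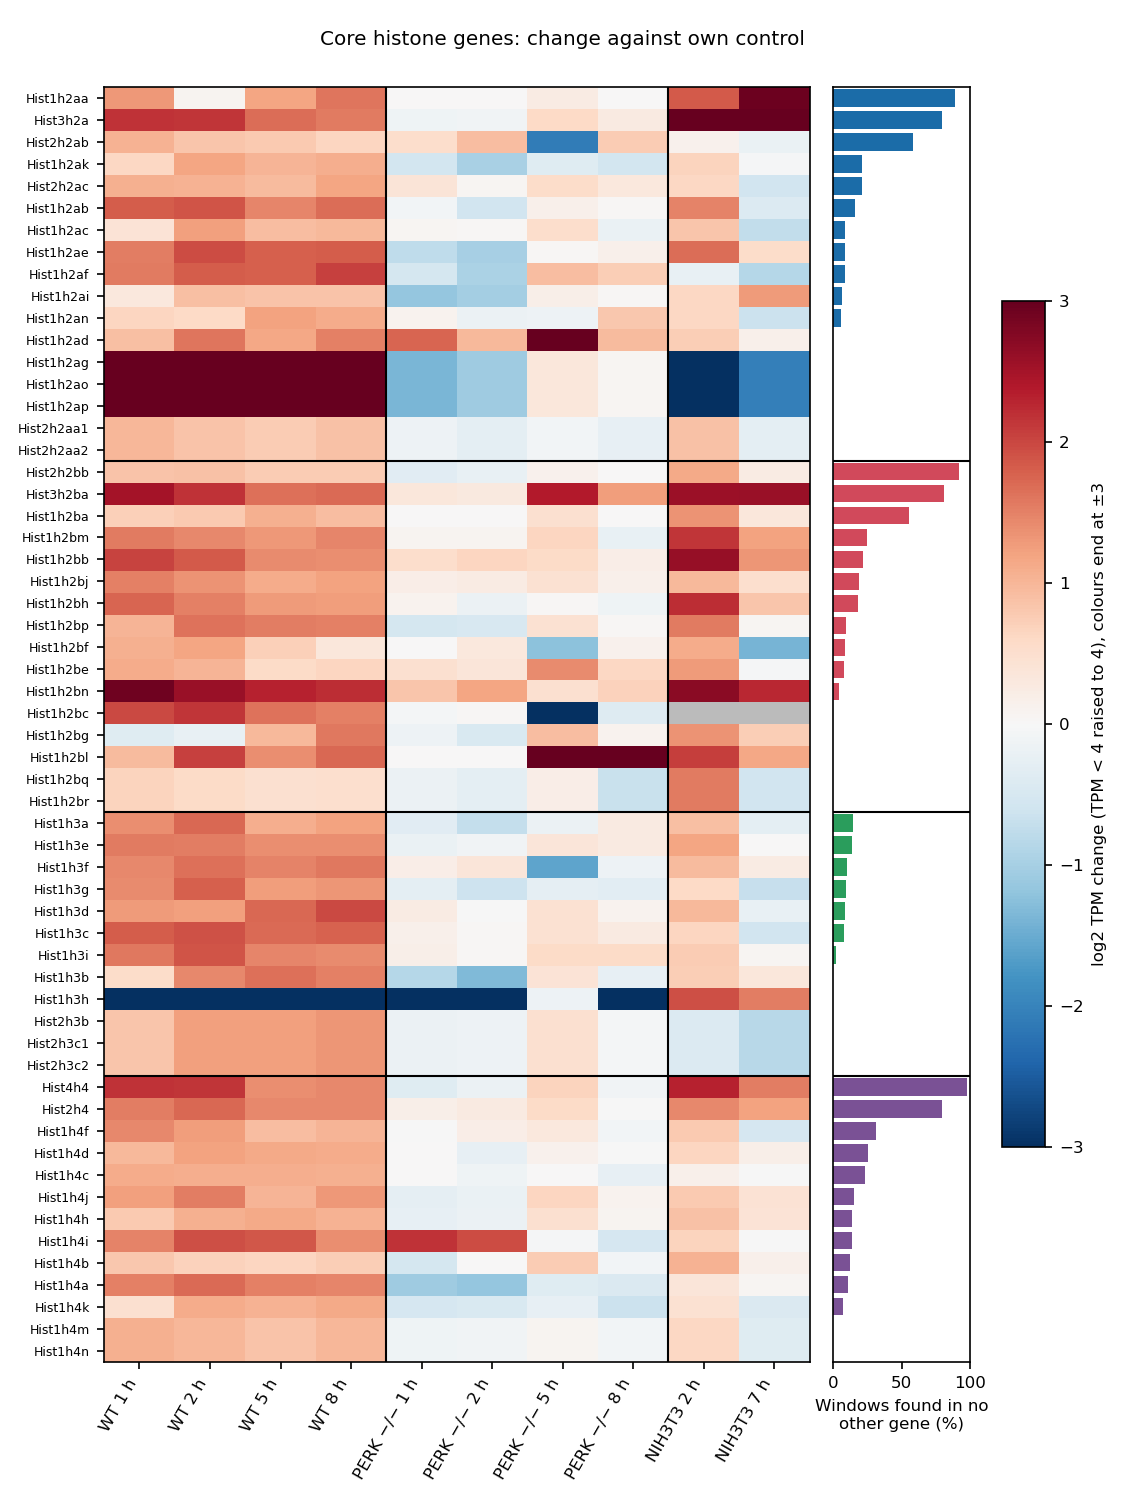
Left, log2 TPM change of each member (rows, grouped as H2A, H2B, H3 and H4 from top to bottom) against its own control in the 10 Tg libraries (columns); red is higher, blue is lower, colours end at 3 in either direction, and grey marks Hist1h2bc, listed at 0 in NIH3T3 cells. Right, percent of the 28-base windows found in no other coding gene. In the WT columns 36, 45, 41 and 45 of 58 members are at least 2-fold higher and 1, Hist1h3h, is lower.

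H2A and H2B form the dimers that flank the tetramer of H3 and H4. H2A summed to 3644 CPM in untreated WT MEFs and to 7841, 9355, 8227 and 8899 CPM at 1, 2, 5 and 8 h. These are log2 changes of 1.11 (1.08 to 1.13), 1.36 (1.34 to 1.38), 1.17 (1.16 to 1.19) and 1.29 (1.27 to 1.30). In PERK −/− MEFs H2A was the class sum furthest below its control at 1 and 2 h, with 3818, 3012, 2762, 4812 and 3782 CPM. The log2 changes were -0.34 (-0.37 to -0.32), -0.47 (-0.49 to -0.44), 0.33 (0.31 to 0.36) and -0.01, the last with an interval of -0.04 to 0.01 that includes 0. The expressed H2A members with at least 50% unique windows (Hist1h2aa, Hist2h2ab and Hist3h2a) gave -0.078 at 1 h and 0.012 at 2 h. Those of H2B (Hist1h2ba, Hist2h2bb and Hist3h2ba) gave -0.31 and -0.15. Hist3h2a held most footprints of these H2A genes and Hist2h2bb most of these H2B genes, so each value is largely that of a single gene. Neither the order nor the direction at 2 h held for these few genes, which do not stand for their whole class. In NIH3T3 cells H2A stood at 6943, 13693 and 7348 CPM, changes of 0.98 (0.96 to 1.00) and 0.08 (0.06 to 0.10).

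Among single H2A members, Hist2h2aa1 and Hist2h2aa2, identical copies with the highest mean counts of the class, were each listed at 547 CPM in the WT control and at 1099, 996, 922 and 1007 CPM under Tg. In PERK −/− MEFs both were listed at 556, 510, 477, 535 and 467 CPM. Next in mean counts were Hist1h2ai and Hist1h2ad. Hist1h2ai, with 6.86% unique windows, went from 593 CPM to 749, 1109, 1076 and 1071 in WT MEFs and from 372 to 169, 192, 430 and 377 in PERK −/− MEFs. Hist1h2ad, with no unique window, was listed at 388, 726, 1193, 860 and 1107 CPM in WT MEFs but at 52.3, 177, 108, 550 and 100.3 CPM in PERK −/− MEFs, so that its 5 h library stood far above the others there. The largest change of counts at WT 2 h, over members with at least 100 counts in the control and 2 h libraries together, was that of Hist1h2ag, Hist1h2ao and Hist1h2ap, which cannot be told apart. Each was listed at 23.1 CPM in the WT control and at 208, 235, 246 and 257 CPM under Tg, a log2 change of 3.35 (3.14 to 3.56) at 2 h. They moved the other way in NIH3T3 cells, with 711, 0 and 89 counts each, and the 2 h value was at least 54.8-fold lower on a floor of 3 counts per library. No window of these 3 genes is unique, and such single values rest on how reads were divided.

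In NIH3T3 cells H2B was furthest above its control of the 4 class sums at both times. Members with at least 50% unique windows gave 1.26 for H2B, 1.96 for H2A and 2.08 for H4 at 2 h. At 7 h they gave 0.25, 1.96 and 1.39. These are few genes and do not rank the whole classes. Of the H2A ones, Hist1h2aa had 10.3 CPM in the control, beside 6943 CPM for all H2A. The H2B sum in NIH3T3 cells was 6559, 21997 and 9391 CPM, log2 changes of 1.75 (1.73 to 1.76) and 0.52 (0.50 to 0.53). At 2 h 14 of 15 H2B members were at least 2-fold higher, where 5.76% of all expressed genes were. For H2A it was 4 of 17, for H3 2 of 12 and for H4 3 of 13, with identical copies counted separately. In WT MEFs H2B went from 4301 CPM to 10506, 10589, 8935 and 9244 CPM, changes of 1.29 (1.27 to 1.31), 1.30 (1.28 to 1.32), 1.05 (1.04 to 1.07) and 1.10 (1.09 to 1.12). The 1 and 2 h libraries did not differ beyond counting error, with 0.01 (-0.01 to 0.03) for 2 h over 1 h. In PERK −/− MEFs the class stood at 4421, 4619, 4870, 5859 and 4504 CPM, and its log2 changes of 0.06 (0.04 to 0.08), 0.14 (0.12 to 0.16), 0.41 (0.39 to 0.43) and 0.03 (0.00 to 0.05) were all above 0, unlike those of the other classes.

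Hist2h2bb had the highest mean counts of all H2B genes, and 91.5% of its windows are unique. It is at chr3:96269752-96270132 on the plus strand. In WT MEFs it was listed at 841, 1546, 1553, 1428 and 1428 CPM in the order control, 1, 2, 5 and 8 h, in PERK −/− MEFs at 871, 701, 781, 979 and 868 CPM, and in NIH3T3 cells at 1490, 3566 and 1767 CPM in the order control, 2 and 7 h. Every Tg library of WT MEFs lay above the control, by 0.88 (0.83 to 0.94) on the log2 scale at 2 h, which is under the 2-fold rule. Hist1h2bb, with 22.1% unique windows, went from 259 CPM in the WT control to 1059, 925, 690 and 683 CPM, and from 228 CPM to 1509 and 569 CPM in NIH3T3 cells. Hist1h2be went from 393 to 856, 796, 588 and 619 CPM in WT MEFs. At the low end at WT 2 h were Hist1h2bg, at 317 CPM in the control and 247, 274, 616 and 945 CPM under Tg, and Hist1h2bq, at 434 CPM and then 700, 648, 600 and 612 CPM. Hist1h2bg has no unique window, and it was highest at 8 h where the class sum was highest at 2 h.

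Hist1h2bc and Hist1h2bl were at or near 0 in some libraries and high in others (Hist1h2bl was chosen after its values were seen). Hist1h2bc, second in mean counts, was listed at 382, 378, 414, 10.6 and 288 CPM in PERK −/− MEFs and at 0 in all NIH3T3 libraries. Hist1h2bl was at 0 in the PERK −/− libraries of control, 1 and 2 h and at 42.8 and 52.6 CPM at 5 and 8 h, while WT MEFs had 147 to 609 CPM and NIH3T3 cells 711 to 3283 CPM. Neither gene has a unique window, and the H2B sum at PERK −/− 5 h was higher than in the control while Hist1h2bc alone was 5.18 lower on the log2 scale.

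Of the 4 class sums, H3 was furthest above its control in WT MEFs at 2, 5 and 8 h and least in NIH3T3 cells at 2 h. No H3 member has more than 14.8% unique windows. The few unique-window members of H2A stood higher, at 2.10, 1.65 and 1.53 for WT 2, 5 and 8 h. Those of H4, Hist2h4 and Hist4h4, gave 1.88, 1.41 and 1.45 at these times, higher than H3 at 2 h and about level with it later. Such small parts of H2A and H4 do not rank the whole classes. In WT MEFs the H3 sum was 3498 CPM in the control and 8424, 10285, 9237 and 9529 CPM at 1, 2, 5 and 8 h. Log2 changes were 1.27 (1.25 to 1.29), 1.56 (1.53 to 1.58), 1.40 (1.38 to 1.42) and 1.45 (1.43 to 1.46). PERK −/− MEFs had 4305, 3740, 3611, 5337 and 4184 CPM, changes of -0.20 (-0.23 to -0.18), -0.25 (-0.27 to -0.23), 0.31 (0.29 to 0.33) and -0.04 (-0.06 to -0.02). In NIH3T3 cells H3 stood at 8098, 12918 and 6942 CPM. Its change was 0.67 (0.66 to 0.69) at 2 h and -0.22 (-0.24 to -0.21) at 7 h, where H2A, H2B and H4 were above their controls.

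Hist1h3c, on the minus strand at chr13:23744973-23745602, had the highest mean counts of all members in MEFs. It was listed at 652 CPM in the WT control and 2330, 2443, 2125 and 2220 CPM under Tg, a log2 change of 1.91 (1.86 to 1.96) at 2 h. PERK −/− MEFs had 650, 743, 702, 911 and 774 CPM, and NIH3T3 cells 1385, 2355 and 927 CPM. All WT Tg libraries thus lay far above every untreated or PERK −/− library of MEFs. Hist1h3b went from 428 to 639, 1171, 1345 and 1224 CPM in WT MEFs but from 880 to 498, 373, 1204 and 740 CPM in PERK −/− MEFs. Hist2h3b, Hist2h3c1 and Hist2h3c2, identical copies, were each listed at 355 CPM and then 634, 831, 830 and 886 CPM in WT MEFs, and at 882, 722 and 498 CPM in NIH3T3 cells. The 1 member below its control in all WT Tg libraries was Hist1h3h, with 1005 counts in the control and 0 in the others, so at least 70.8-fold lower at 2 h on a floor of 3 counts per library. It was also at 0 in 3 of 4 PERK −/− Tg libraries and had 963 counts in the control and 1053 at 5 h. In NIH3T3 cells it went the other way, with 171, 711 and 499 CPM in the order control, 2 and 7 h. With no unique window, it shares every window with another gene, and its single values rest on how reads were divided.

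H4 encodes 1 protein from all its copies. In WT MEFs all 13 were above their control at all 4 times, where 4855, 5069, 5220 and 5261 of 10432 expressed genes were. The H4 sum went from 3193 CPM to 7005, 7630, 6810 and 6982 CPM. The changes were 1.13 (1.11 to 1.16), 1.26 (1.23 to 1.28), 1.09 (1.07 to 1.11) and 1.13 (1.11 to 1.15) on the log2 scale. In PERK −/− MEFs 4 members lay above and 9 below their control at 1 and at 2 h. Of all expressed genes 3733 were above and 5810 below at 1 h, and 3415 and 6091 at 2 h, so most lay below too. The H4 sums were 4128, 3745, 3893, 4963 and 3808 CPM, changes of -0.14 (-0.16 to -0.12), -0.08 (-0.11 to -0.06), 0.27 (0.24 to 0.29) and -0.12 (-0.14 to -0.09). NIH3T3 cells had 6020, 13539 and 8174 CPM, changes of 1.17 (1.15 to 1.19) at 2 h and 0.44 (0.42 to 0.46) at 7 h. The spread over members (SD of the log2 count change, members with at least 50 counts in both libraries) was 0.43 for the 13 H4 members at WT 2 h, 0.28 for 11 H3, 0.74 for 15 H2B and 0.95 for 15 H2A members. The limit of 50 counts left out Hist1h3h, which had 1005 counts in the WT control and 0 at 2 h. The H3 spread thus does not hold the largest change of an H3 member, -5.92 by the TPM rule. Identical copies enter the spread separately. The 3.35 of Hist1h2ag, Hist1h2ao and Hist1h2ap thus counts 3 times in H2A, and the value of Hist2h3b, Hist2h3c1 and Hist2h3c2 3 times in H3.

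The H4 members with the highest mean counts were Hist1h4d, Hist1h4h and the identical Hist1h4m and Hist1h4n. Hist1h4d was listed at 663 CPM in the WT control and 1313, 1534, 1446 and 1431 CPM under Tg, beside 797, 817, 711, 890 and 790 CPM in PERK −/− MEFs. Hist1h4h went from 355 CPM to 617, 743, 776 and 730 in WT MEFs. Hist1h4m and Hist1h4n were each listed at 303 CPM and then 642, 609, 549 and 605 CPM. In each of these the WT Tg libraries all exceeded the WT control, and the highest PERK −/− value of Hist1h4d, 890 CPM, was below its lowest WT Tg value, 1313 CPM.

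The 8 expressed members with at least 50% unique windows depend least on how reads of copies were divided. They were chosen by their sequence, after the values had been seen. Hist2h2bb was the largest part of their sum in the MEF libraries. Their sum was higher in WT MEFs by 1.30 (1.26 to 1.33), 1.31 (1.27 to 1.35), 1.04 (1.00 to 1.07) and 1.03 (1.00 to 1.06) on the log2 scale at 1, 2, 5 and 8 h. In PERK −/− MEFs it differed from control by -0.19 (-0.23 to -0.15), -0.04 (-0.07 to -0.001), 0.37 (0.33 to 0.40) and 0.02, the last with an interval of -0.02 to 0.06. In NIH3T3 cells it was higher by 1.70 (1.67 to 1.72) at 2 h and by 0.92 (0.89 to 0.94) at 7 h, where the 49 other members differed from control by 1.10 and 0.10. By the TPM rule 6, 4, 6 and 5 of the 8 were at least 2-fold higher in WT MEFs at the 4 times (all expressed genes 4.33%, 5.66%, 5.86% and 6.45%), and 7 of 8 in NIH3T3 cells at 2 h (5.76%).

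Hist4h4 lies alone at chr6:136801553-136804415 on the minus strand. It was listed at 80.0, 366, 354, 208 and 218 CPM in WT MEFs, at 130, 104, 122, 210 and 120 CPM in PERK −/− MEFs and at 643, 3466 and 1856 CPM in NIH3T3 cells. In WT MEFs it was highest at 1 and 2 h, 2.19 (2.07 to 2.31) and 2.14 (2.01 to 2.28) above the control on the log2 scale, and less so later, at 1.38 and 1.45. Its level in untreated NIH3T3 cells was already above that of all MEF libraries, with the limit that the tables were made separately.

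Hist3h2a and Hist3h2ba neighbour each other on chromosome 11. Hist3h2a, at chr11:58954685-58956830, was listed at 128, 581, 568, 411 and 377 CPM in WT MEFs, at 139, 129, 135, 213 and 165 CPM in PERK −/− MEFs and at 17.4, 191 and 165 CPM in NIH3T3 cells. Hist3h2ba had 69, 119, 66, 103 and 211 counts in WT MEFs, which is 5.77, 33.0, 26.1, 18.3 and 18.9 CPM. Together they differed from control by 2.20, 2.15, 1.68 and 1.56 in WT MEFs, by -0.08, -0.03, 0.73 and 0.29 in PERK −/− MEFs and by 3.46 and 3.26 in NIH3T3 cells. At 7 h the sum of all core members was 0.21 above its control. The pair had 202 counts in the NIH3T3 control, most of them of Hist3h2a. By the TPM rule Hist3h2a was 3.25 and Hist3h2ba 2.60 above control at 7 h. Hist2h4, at chr3:96261682-96263311 on the minus strand, was listed at 158, 461, 521, 426 and 432 CPM in WT MEFs, at 222, 255, 283, 339 and 218 CPM in PERK −/− MEFs and at 590, 1752 and 1373 CPM in NIH3T3 cells.

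The other distinct members had few counts. Hist2h2ab had 34 to 131 counts in WT MEFs and a change of 0.84 (0.22 to 1.42) at 2 h. It had 4 counts in the PERK −/− library of 5 h and 38 to 167 in the other PERK −/− libraries. Hist1h2aa and Hist1h2ba encode an H2A and an H2B known from testis. Hist1h2ba had 18 to 89 counts in WT and 0 to 15 in PERK −/− MEFs, and Hist1h2aa had 1, 12, 3, 17 and 44 counts in WT MEFs in the order control, 1, 2, 5 and 8 h, a change of 5.56 at 8 h whose interval ran from 3.00 to 10.9. In NIH3T3 cells Hist1h2aa had 114, 102 and 457 counts, that is 10.3, 39.7 and 79.4 CPM, and was highest at 7 h.

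**Figure D3:**
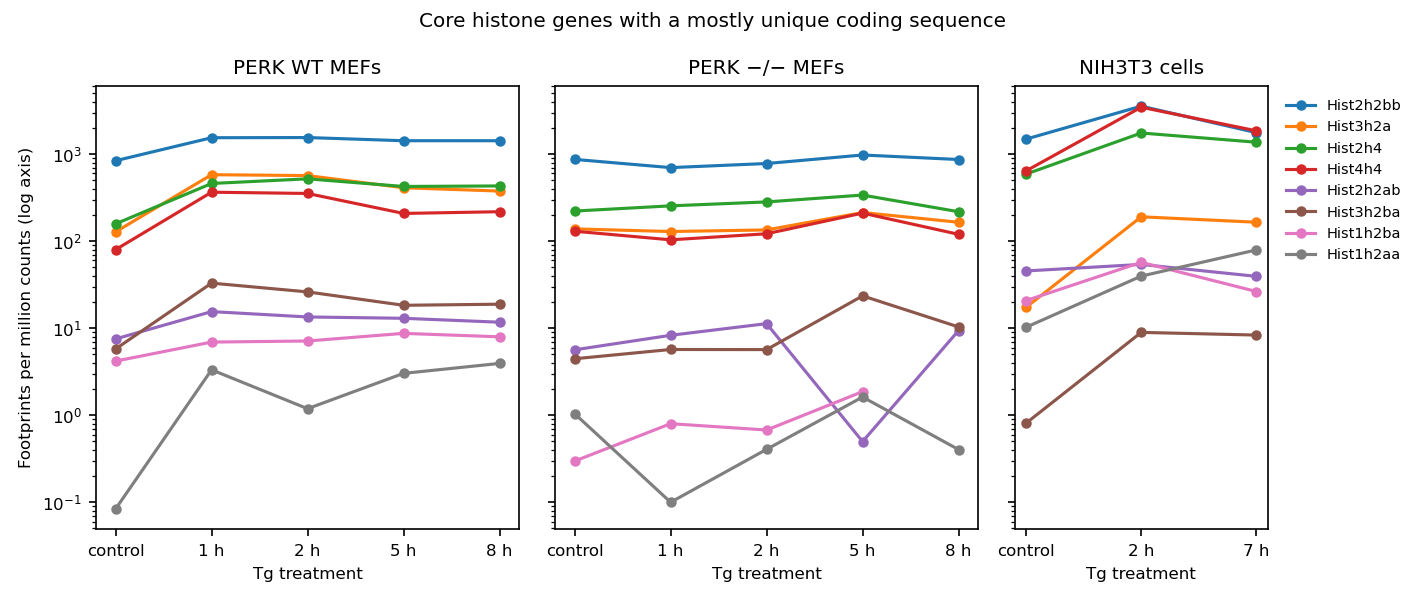
Footprint level (CPM, log axis) of the 8 expressed members with at least 50% unique windows, by library; 1 library per point, time points evenly spaced, and a value of 0 (Hist1h2ba in PERK −/− MEFs at 8 h) is not drawn. In WT MEFs each line lies above its control at 1 h, and Hist4h4 goes from 80.0 to 366 CPM. In NIH3T3 cells Hist4h4 reaches 3466 CPM at 2 h.

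By cluster, the 46 expressed Hist1 members (chr13:21715763-23934851) differed from control by 1.25, 1.43, 1.23 and 1.29 in WT MEFs on the log2 scale and the 9 Hist2 members (chr3:96219865-96270132) by 0.96, 1.05, 0.97 and 1.05. All clusters, the Hist3 pair and Hist4h4 included, were thus higher in WT MEFs at all times. In PERK −/− MEFs Hist1 differed from control by -0.14, -0.15, 0.34 and -0.02 and Hist2 by -0.13, -0.10, 0.28 and -0.09. In NIH3T3 cells Hist1 differed from control by 1.23 at 2 h and 0.24 at 7 h and Hist2 by 0.77 and -0.13. Members whose model holds the stem-loop motif (41 expressed) differed from control by 1.27, 1.41, 1.24 and 1.31 in WT MEFs and the 17 without it by 1.06, 1.27, 1.05 and 1.08. As 15 of the 19 members without the motif have models that end early, these are groups of gene models and not of mRNA ends. Hist1h2bc, Hist1h2bq and Hist1h2br, also in the group without it, have longer models.

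Nucleosomes need the classes in equal number, and TPM values, which are per length, allow them to be compared. In untreated WT MEFs H2A made up 23.2% of the core histone TPM, H2B 27.97%, H3 21.0% and H4 27.8%. At 2 h the shares were 23.2%, 26.9%, 24.1% and 25.8%, so that the share of H3 was higher and that of H4 lower. In PERK −/− MEFs the share of H2A was 21.2%, 18.4%, 16.8%, 21.3% and 21.6% from control to 8 h, and that of H2B was 25.0%, 28.9%, 30.3%, 26.5% and 26.3%. In NIH3T3 cells H2B went from 22.6% to 33.5% at 2 h and 27.8% at 7 h while H3 went from 25.9% to 18.3% and 18.9%. With 1 library each, these shifts have no replicate error.

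**Figure D4:**
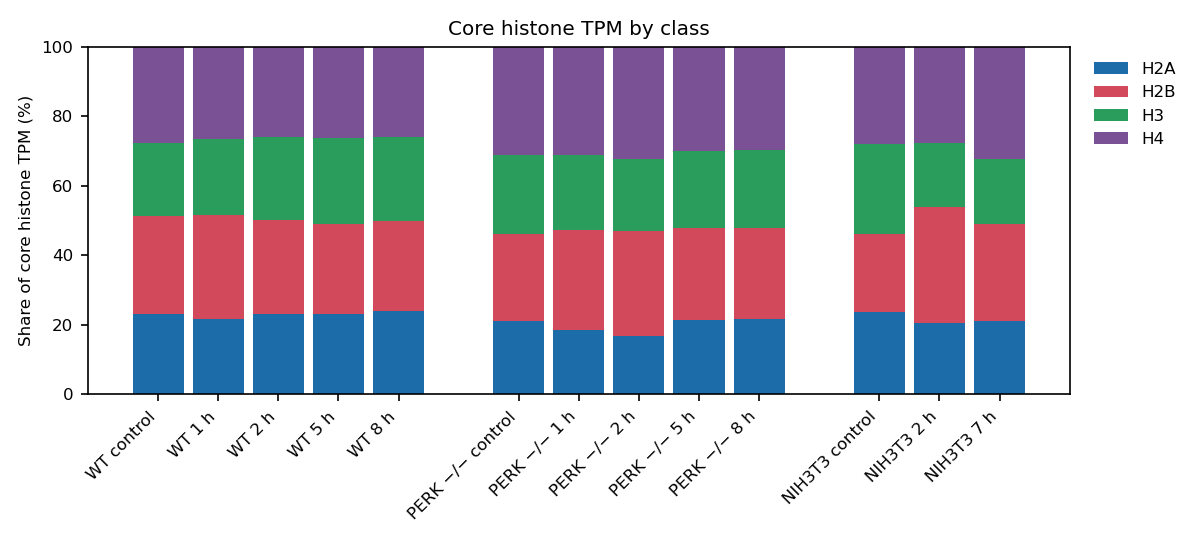
Share of the summed core histone TPM (y axis, percent, from 0 to 100) held by H2A, H2B, H3 and H4 in each of the 13 libraries; each bar is 1 library. The shares stay between 16.8% and 33.5%, with the lowest H2A share in PERK −/− MEFs at 2 h and the highest H2B share in NIH3T3 cells at 2 h.

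Untreated, the genotypes differed less than WT MEFs did under Tg. PERK −/− over WT controls gave 1.14-fold for the whole sum (log2 0.19, 0.18 to 0.20), 1.05-fold for H2A, 1.03-fold for H2B, 1.23-fold for H3 and 1.29-fold for H4. In untreated cells the core members made up 1.46% of all counts in WT MEFs, 1.67% in PERK −/− MEFs and 2.76% in NIH3T3 cells, and the highest share was 6.21%, in NIH3T3 cells at 2 h.

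Base composition and length set histone genes apart from other genes. The median coding GC content of the members was 65.4%, beside 52.7% over all expressed genes in MEFs, and the median coding length was 387 beside 1365 nt. The 498 other expressed genes of at most 411 nt had median changes of -0.07, -0.13, -0.02 and 0.00 in WT MEFs. The 160 other genes with a GC content of at least 65.4% had medians of 0.09, 0.45, 0.44 and 0.54 in WT MEFs and of -0.33, -0.46, 0.00 and 0.00 in PERK −/− MEFs. GC-rich genes as a group thus moved in the direction of the histones at all times in WT MEFs, least at 1 h. In PERK −/− MEFs they did so at 1 and 2 h. Of these 160 genes 8.1%, 18.1%, 17.5% and 21.9% were at least 2-fold higher in WT MEFs, and 0.0%, 0.0%, 4.4% and 3.8% in PERK −/− MEFs. In NIH3T3 cells the 124 genes of that GC content had medians of -0.16 at 2 h and 0.00 at 7 h. With a trend on GC content removed, the WT sums were still higher, by 1.03, 1.04, 0.83 and 0.83, while the PERK −/− sums at 1 and 2 h turned to 0.07 and 0.14. With 1 library per condition the part of GC content in these values was not tested further.

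Genes that act with the core histones were followed by lists. Of the linker histones, which bind the DNA between nucleosomes, 3, 2, 0 and 0 of 7 were at least 2-fold higher in WT MEFs at 1, 2, 5 and 8 h, and 3 of 6 in NIH3T3 cells at 2 h, where the shares over all expressed genes were 4.33%, 5.66%, 5.86%, 6.45% and 5.76%. At 2 h these were Hist1h1a (2.47-fold in TPM) and Hist1h1d (2.10-fold) in WT MEFs. Their summed counts differed from control by 1.05 (1.03 to 1.07), 0.63 (0.60 to 0.66), 0.37 (0.34 to 0.39) and 0.41 (0.39 to 0.43) in WT MEFs, by -0.45, -0.16, 0.00 and -0.32 in PERK −/− MEFs and by 1.51 and 0.03 in NIH3T3 cells. No replacement variant of 9, the histones made outside S phase, was at least 2-fold higher at any time in WT MEFs, and their median changes there were 0.15, 0.29, 0.29 and 0.41.

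Of 23 expressed factors for the transcription and 3′ processing of histone mRNA, 2 were at least 2-fold higher and 1 lower at WT 2 h, counts near the shares over all expressed genes at that time (5.66% higher and 4.01% lower). Higher were Lsm10 (2.05-fold, 46 counts in the control and 20 at 2 h) and Lsm11 (3.24-fold, 64 and 44 counts), the proteins particular to the U7 particle that cuts histone pre-mRNA. Lower was Snrpf (0.494-fold), a ring protein shared with the splicing particles. Slbp, the stem-loop binding protein, had 163, 147, 146, 144 and 133 TPM in WT MEFs and 137, 138, 143, 165 and 126 TPM in PERK −/− MEFs. Npat, the coactivator of histone transcription, had 18.1, 16.5, 17.1, 15.8 and 16.9 TPM in WT MEFs. Both stayed within 1.5-fold of the control in all MEF libraries.

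Among 18 chaperones, which carry histones to DNA, Asf1a (0.465-fold) and Set (0.440-fold) were at least 2-fold lower at WT 2 h and none was higher, beside 4.01% and 5.66% of all expressed genes. Of 26 S phase genes, Cdt1, a licensing factor of replication origins, was 3.67-fold higher and Ccne2, a cyclin of S phase entry, 0.479-fold at WT 2 h, 1 gene in each direction and near the same shares. Pcna, the sliding clamp of replication, had 766, 704, 680, 617 and 633 TPM in WT MEFs. The medians of the S phase list were 0.00, 0.10, 0.05 and -0.01 in WT MEFs, 0.10, 0.08, -0.08 and -0.06 in PERK −/− MEFs and 0.01 and -0.25 in NIH3T3 cells, against core histone medians of 1.11 to 1.32 in WT MEFs. The medians of the chaperone and processing lists in WT MEFs were all below 0, between -0.21 and -0.09.

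**Figure D5:**
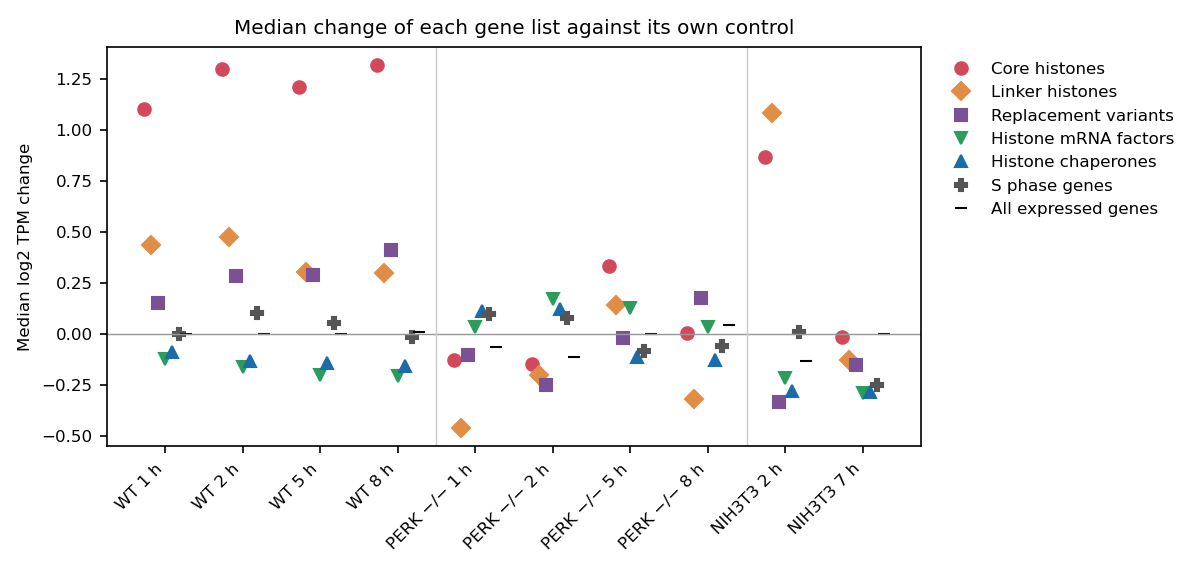
Median log2 TPM change of the core histone members, the linker histones, the replacement variants, the factors for histone mRNA, the chaperones, the S phase genes and all expressed genes (symbols) in each of the 10 Tg libraries against its own control (x axis); medians have no replicate error. The core histones lie between 1.11 and 1.32 in the WT libraries and at 0.87 in NIH3T3 cells at 2 h, and within 0.35 of 0 in the others.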

How the data were processed

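Ribosome footprints of 13 libraries, 1 per condition, were analysed. Per the methods, footprints 22 to 34 nt long were used, rRNA and tRNA reads were filtered out by STAR, and Bowtie2 mapped what remained to mm10 RefSeq coding sequences without their first and last 30 nt. Transcripts shorter than 100 nt were dropped and RSEM quantified genes (versions not given in the sources used here). The deposited expected counts are whole numbers, not scaled, in which RSEM divides reads of copies among them. The deposited TPM values are scaled within each library. The doses come from the study's methods.

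Counts were summed over the members and per class, divided by library totals, and compared with the own control, with exact conditional (Clopper-Pearson) 95% intervals. TPM values under 4 were raised to 4 for the 2-fold rule. The members and lists were chosen with earlier results of these data known. Named members are the 4 per class with the highest mean counts in MEFs and, over members with at least 100 counts in the WT control and 2 h libraries together, the 3 largest and 3 smallest count changes. Of the other lists, those changed 2-fold at WT 2 h and Slbp, Npat and Pcna are named. The distinct members were added for their sequence.

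Alternatives were TMM (edgeR 4.0.16) and DESeq2 1.42.0 factors, summed TPM, other filters, floors and thresholds, lowess trends (fraction 0.3) on GC content and coding length, and the sum without its largest member. The sum over members with at least 50% unique windows was added after seeing the data. The calls and intervals were tested on simulated independent Poisson counts. The simulation held no division of reads between copies and no variation between replicates, so it does not cover these errors. The software was R 4.3.3, Python 3.11.15, scipy 1.17.1, pandas 2.3.3, numpy 2.4.6, matplotlib 3.10.9 and statsmodels 0.14.6. Coding sequences came from GENCODE M21 on GRCm38, the assembly of mm10, for all 61 members and 95.9% of the genes expressed in MEFs. RNA levels were not analysed here.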

Additional observations from a re-analysis of the deposited data

Results flagged for a closer look

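Sums that moved one way in WT MEFs and the other way in PERK −/− MEFs at the same time of Tg were singled out, where both counting intervals excluded 0. With 1 library per condition the difference between the genotypes was not tested. For all core histones, the log2 changes of PERK −/− MEFs were -0.14 at 1 h, -0.14 at 2 h and -0.035 at 8 h, where WT MEFs had 1.21, 1.37 and 1.24. H2A differed from control by -0.34 at 1 h and -0.47 at 2 h in PERK −/− MEFs, beside 1.11 and 1.36 in WT MEFs. H3 differed from control by -0.20 at 1 h, -0.25 at 2 h and -0.041 at 8 h, beside 1.27, 1.56 and 1.45. H4 differed from control by -0.14 at 1 h, -0.085 at 2 h and -0.12 at 8 h, beside 1.13, 1.26 and 1.13. At 5 h all classes lay above the control in both genotypes, and the H2B sum did so at every time. These small PERK −/− values did not all keep their sign under other processing: without the GC trend the sums of all core histones, H3 and H4 at 1 and 2 h turned above 0, over members with at least 50% unique windows H2A at 2 h and H4 at 1 and 2 h did, and so did H4 at 2 h with TMM or DESeq2 factors. At 8 h the sum of all core histones turned without the length trend and over the unique-window members, and H3 turned without its member with the most counts. The PERK −/− H2B sum in turn lay below its control at 1 and 2 h over the unique-window members (-0.31 and -0.15) and at 8 h with TMM or DESeq2 factors (-0.044).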

How the results depend on the processing

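Under all 9 alternatives the core histone sum stayed above its control at each time in WT MEFs (log2 change 0.83 to 1.57) and NIH3T3 cells (0.20 to 1.70), and in PERK −/− MEFs at 5 h (0.29 to 0.37). The smaller PERK −/− values at 1, 2 and 8 h did not keep their sign throughout, and the cause was not tested. Counting intervals are so narrow that most alternatives left them. Values follow in the order WT 1, 2, 5, 8 h, PERK −/− 1, 2, 5, 8 h and NIH3T3 2, 7 h. TMM factors gave 1.17, 1.31, 1.10, 1.15, then -0.064, -0.049 and -0.11 (1, 2 and 8 h), then 1.21 and 0.30. DESeq2 factors gave 1.18, 1.31, 1.10, 1.15, then -0.065, -0.034 and -0.11 (1, 2 and 8 h), then 1.23 and 0.31. Summed TPM gave 1.19, 1.36 and 1.23 (1, 2 and 8 h), then -0.17, -0.20 and 0.29 (1, 2 and 5 h), then 1.06 and 0.23. Without the GC trend the values were 1.03, 1.04, 0.83, 0.83, then 0.065 and 0.14 (turned), 0.37 and -0.0088, then 1.23 and 0.23. Without the trend on coding length they were 1.31, 1.57, 1.28, 1.35, then -0.18, -0.28 and 0.0066 (1, 2 and, turned, 8 h), then 1.22 and 0.40. Without the member with the most counts WT MEFs had 1.17, 1.34, 1.15 and 1.21. Members with at least 50% unique windows gave 1.30, 1.31, 1.04, 1.03, then -0.19, -0.037, 0.37 and 0.019 (turned at 8 h), then 1.70 and 0.92.

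Class sums that turned were all of PERK −/− MEFs. Unique-window members, only a few genes of each class, gave 0.012 for H2A at 2 h. They gave -0.31 and -0.15 for H2B and 0.026 and 0.20 for H4 at 1 and 2 h. TMM and DESeq2 factors gave -0.044 and -0.044 for H2B at 8 h and 0.0057 and 0.021 for H4 at 2 h. Without the GC trend H3 had 0.021 and 0.037 and H4 0.067 and 0.20 at 1 and 2 h. Without Hist1h3b, the H3 member with the most counts in that pair of libraries, H3 at 8 h was 0.0081. In WT MEFs the class sums ranged over all alternatives and times from 0.78 to 2.14 for H2A, 0.77 to 1.49 for H2B, 0.99 to 1.74 for H3 and 0.72 to 1.88 for H4. In NIH3T3 cells at 2 h they ranged from 0.86 to 1.96 for H2A, 1.26 to 1.86 for H2B, 0.55 to 0.73 for H3 and 0.91 to 2.08 for H4.

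With a 3-fold threshold the members raised numbered 13, 23, 13 and 13 in WT MEFs at 1, 2, 5 and 8 h, 1 and 1 in PERK −/− MEFs at 2 and 8 h, and 11 and 4 in NIH3T3 cells at 2 and 7 h. Raised in PERK −/− MEFs at 2 h were 4 by counts and 4 with TMM factors. Members lowered in PERK −/− MEFs at 3-fold were 1, 1 and 2 at 1, 2 and 5 h. At 2 h 4 were lowered by counts and 3 with TMM factors, and at 8 h 3 by counts, 3 with a floor of 1 TPM and 4 with a pseudocount of 1 TPM. The other alternatives left the counts within 1.5 times. No share over all expressed genes is given at these settings, so the counts only show how far the calls depend on the processing. No paired analysis was possible because each condition was 1 library, and for the same reason no replicate could be left out.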
